A study of Ovis aries with 49 samples.

Results

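The genes described here are those of the mitochondrial ribosome and of the protein import machinery of mitochondria, read in 5 adipose depots of lambs at 2 ages. A probe set, the group of short probes that reads 1 transcript on the array, was taken where its gene symbol was MRPL or MRPS followed by a digit, or began with TIMM or TOMM. The rule gave 63 of the 10273 probe sets, each with a different symbol: 25 MRPL, 22 MRPS, 10 TIMM and 4 TOMM genes, and 2 whose symbols are not of proteins, the antisense transcript MRPL20-AS1 and the pseudogene MRPL45P2. Total RNA of epicardial, omental, perirenal, sternal and subcutaneous fat of lambs of Bluefaced Leicester cross Swaledale ewes was hybridised to human U133 Plus 2 arrays. Each depot had 5 arrays at 7 days and 5 at 28 days of age, except subcutaneous fat at 7 days with 4, so that 24 arrays were read at the younger age and 25 at the older. One twin of a mother was sampled at 7 days and the other at 28 days, and the study sampled all depots from each lamb. The array numbers of an age differ in part between the depots, so the arrays are not a full set per number. The labels number the arrays without saying that a number is an animal, so the p-values measure only the spread between these samples. The free-text description of every array names another age range, and the age field, which gives 7 or 28 days, was followed. Letters stand for these numbers, from A to G for the younger lambs and from H to O for the older ones. The study had mothers on a standard diet and mothers given added canola oil. Every array title holds the same letter C, which the labels do not explain. Which diet a mother had received is not stated by the labels, so diet was not separated. The study extracted RNA from more tissue at 28 days than at 7 days, so that age and the amount of tissue cannot be told apart in any change with age.

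Mitochondria keep a small genome that codes for core subunits of the respiratory chain, and they translate it on ribosomes of their own. The proteins of these ribosomes are coded in the nucleus: MRPL genes give the large subunit, which forms the peptide bond, and MRPS genes mostly give the small subunit, which reads the mRNA. They are made in the cytosol and imported, as are nearly all mitochondrial proteins. Import begins at the TOM complex of the outer membrane (TOMM genes). It continues through the TIM complexes of the inner membrane and the small TIM chaperones between the membranes (TIMM genes). Brown adipocytes are rich in mitochondria and dissipate energy as heat through UCP1, the uncoupling protein of their inner membrane. In lambs, UCP1-bearing fat is most prominent around birth and gives way to white fat in the following weeks.

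Most of these genes were read weakly. Values are deposited log2 expression values, and over the whole table they ran from 2.49 to 14.04 with 82.7% of them below 4. Of the 63 genes, 14 had a mean of at least 4 over all arrays (22.2%, against 17.1% of all probe sets), and 48 were below 4 in every group of depot and age. Poor matching of human probes to sheep transcripts and low expression cannot be told apart here, and a difference with 1 side near the lowest value may be understated. Each probe set also held 1 value that recurred, to the digit, on many arrays, on 3 to 34 of the 49 arrays for these genes (median 21, and 23 over all probe sets). It is called the shared value below. Thus 26 of the 63 genes (41.3%, against 44.5% of all probe sets) were at their shared value on at least 25 arrays. The share of all probe sets below their shared value differed between groups. It was 8.49% to 12.6% on the epicardial and perirenal arrays at 7 days other than epicardial D, with 28.0%, and 21.4% to 27.7% in the other depots at that age. At 28 days it was 25.7% to 30.7% in sternal fat and 3.93% to 10.9% elsewhere. Its part in the results below was not tested. FABP4, a marker of adipocytes, had means of only 2.59 to 2.80 in the 10 groups. CKM, the creatine kinase of muscle, had a mean of 10.2 in epicardial fat at 7 days. It ran from 2.77 to 12.9 among subcutaneous arrays at 7 days and from 2.73 to 12.7 among sternal arrays at 28 days, and was at most 3.13 on every omental and perirenal array. In whole tissue, fewer cells of a type and less RNA per cell cannot be told apart.

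Averaged over the 63 genes, perirenal fat had the highest mean of the depots at 7 days, 3.49 ± 0.08 (SD, n = 5), and omental fat the lowest, 3.29 ± 0.03 (n = 5). Epicardial fat stood at 3.44 ± 0.07 (n = 5), subcutaneous fat at 3.36 ± 0.02 (n = 4) and sternal fat at 3.35 ± 0.05 (n = 5). The 5 perirenal arrays lay between 3.44 and 3.64 and the 5 omental arrays between 3.23 and 3.31, without overlap. Perirenal and epicardial fat did overlap. Epicardial array D stood at 3.31, and the other epicardial arrays at 3.46 to 3.48, above perirenal B (3.45) and G (3.44). The highest perirenal value, 3.64, was that of array A. At 28 days sternal fat had the lowest mean, 3.22 ± 0.04 (n = 5), and the other depots stood between 3.35 and 3.39. The mean of all probe sets ran from 3.29 to 3.36 at 7 days and from 3.27 to 3.42 at 28 days. In perirenal fat the mean of the 63 genes was 3.49 at 7 days and 3.35 at 28 days, while that of all probe sets was 3.36 and 3.40.

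**Figure D1:**
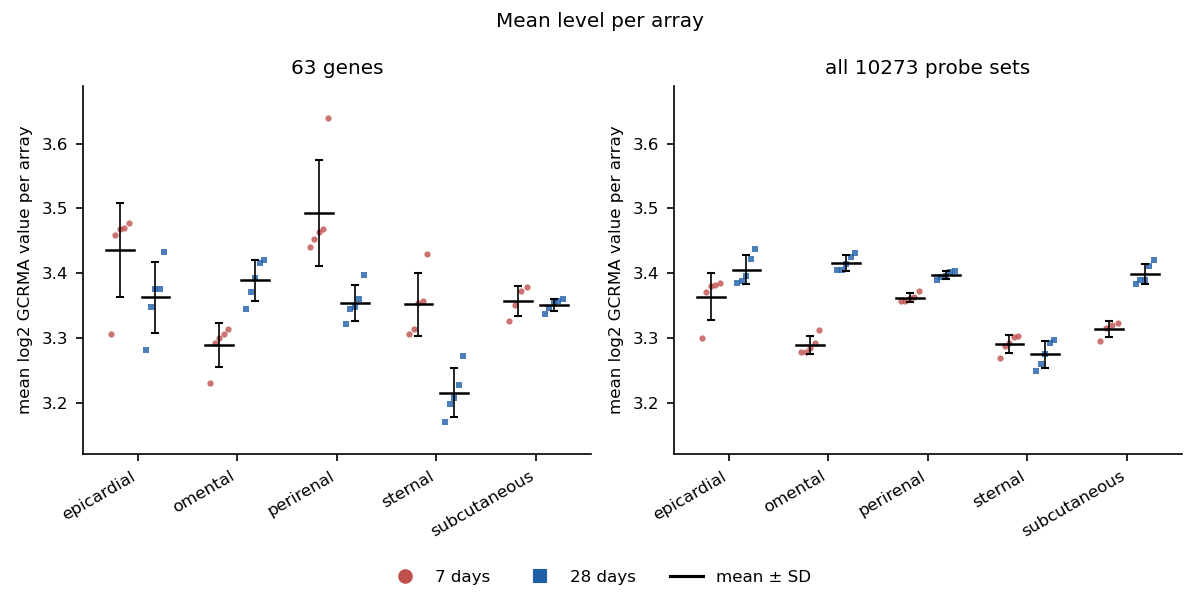
Mean log2 value of the 63 genes on each array (1 point per array, by depot and age, with the group mean as a bar and the SD as an error bar), beside the mean of all 10273 probe sets on the same arrays. For the 63 genes the highest group mean is that of perirenal fat at 7 days, with arrays from 3.44 to 3.64. The lowest is that of sternal fat at 28 days, with arrays from 3.17 to 3.27. Both ranges overlap with those of other groups.

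At 7 days the depots differed in 3 of the 63 genes by the F test of limma (adjusted p at most 0.05 over all probe sets, the threshold for a call throughout), against 8.16% of all probe sets. They were TIMM8B (adjusted p = 7.94e-05), a small TIM of the space between the membranes, and MRPS28 (0.00361) and MRPS31 (0.0435), proteins of the small subunit. The first pair kept the call when any 1 array was left out and under all alternative settings tried. MRPS31 lost it when any 1 of 16 of the 24 arrays was left out, and also without the sternal and subcutaneous arrays whose CKM value was above 4.

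MRPS28 was highest in perirenal fat at 7 days. It read 3.99, 3.30, 2.94, 3.17 and 3.15 on perirenal arrays A, B, C, D and G. The omental, sternal and subcutaneous arrays of that age lay between 2.49 and 2.64, close to the lowest value of the table. The epicardial arrays A and C reached 3.27 and 3.09, while D, E and G stood at 2.51, 2.51 and 2.71. All perirenal arrays were thus above all arrays of the omental, sternal and subcutaneous depots, and they overlapped with epicardial fat. Against the mean of the other depots MRPS28 was higher in perirenal fat by 0.71 ± 0.12 (± the standard error of the fit, adjusted p = 0.00105 from limma), the only call of the 63 genes in that comparison, in which 5.11% of all probe sets were called.

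TIMM8B had opposite places in epicardial and sternal fat at 7 days. It read 4.15, 4.01, 4.30, 4.12 and 4.55 on epicardial arrays A, C, D, E and G. The sternal arrays B, D, E, F and G read 3.39, 3.48, 3.06, 3.27 and 3.28. The 2 depots did not overlap, and the omental (3.39 to 3.79), perirenal (3.58 to 3.89) and subcutaneous arrays (3.64 to 4.25) lay mostly between them. Epicardial fat exceeded the mean of the other depots in TIMM8B by 0.58 (standard error 0.09, adjusted p = 0.000267 from limma), and TIMM8B was the only call there, against 4.07% of all probe sets. In sternal fat it differed by -0.58 (standard error 0.09, adjusted p = 0.00154), again the only call, against 1.2% of all probe sets. Both calls held when any 1 array was left out. Of 9 measured genes of cardiac muscle 8 were also higher in epicardial fat, and their summed level ran from 60.6 to 77.8 on its arrays and from 26.3 to 26.6 on perirenal arrays. The part of muscle in the TIMM8B value was not tested.

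The study saw UCP1 in tissue sections of epicardial, perirenal and sternal fat at 7 days and not in the other depots. On the arrays its mean was 4.04, 6.29 and 4.46 in these 3, against 3.65 in omental and 2.72 in subcutaneous fat, and omental values reached 5.13. Compared as a set with the latter pair, the 3 depots had higher MRPS31 (by 0.66, standard error 0.15, adjusted p = 0.0137 from limma) and higher MRPS28 (by 0.36, standard error 0.10, adjusted p = 0.0445). These were the 2 calls of the 63 genes, against 4.17% of all probe sets. MRPS31 read 3.93, 3.33, 3.08, 3.40 and 2.88 on perirenal arrays A, B, C, D and G, and 2.94, 3.64, 3.88, 3.12 and 3.60 on sternal arrays B, D, E, F and G. The epicardial arrays spread widely, with 2.72 in A, 3.03 in C, 2.57 in D, 4.02 in E and 3.27 in G. The omental arrays stood between 2.52 and 2.59, and subcutaneous A, E, F and G at 3.02, 2.59, 2.60 and 2.62. Every perirenal and sternal array except perirenal G and sternal B lay above every omental and subcutaneous array. Both calls were lost without the arrays whose CKM value was above 4, which leaves 1 subcutaneous array. The MRPS28 call was also lost when any 1 of 18 of the 24 arrays was left out and under quantile normalisation.

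In omental and subcutaneous fat at 7 days no gene of the 63 was called against the mean of the other depots (1.54% and 1.53% of all probe sets). An unadjusted p under 0.05 was reached by 10 and 6 of them (15.9% and 9.5%), against 12.3% and 11.2% of all probe sets. The direction of the whole set can still be described. In perirenal fat 50 of the 63 genes had a difference above zero, with a median of 0.11. Over all probe sets 58.6% were above zero, with a median of 0.02. In omental fat 56 were below zero and 7 above, with a median of -0.10. Over all probe sets only 33.8% were above zero there, with a median of -0.03. In perirenal fat 20 of the 63 (31.7%) had an unadjusted p under 0.05, against 18.3% of all probe sets. Among the 14 genes with a mean of at least 4, all 14 were above zero in perirenal fat, with a median of 0.21, against 0.09 over all probe sets with such a mean. In epicardial fat 13 of the 14 were above zero, with a median of 0.12, against 0.08. The medians of the 63 kept their sign under quantile normalisation, at 0.06 in perirenal and -0.05 in omental fat. In epicardial fat the median of 0.05 was 0.02 without epicardial array G and 0.08 without D, and turned to -0.02 under quantile normalisation, and in sternal fat that of -0.03 turned to 0.02 and was -0.04 without epicardial array D.

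**Figure D2:**
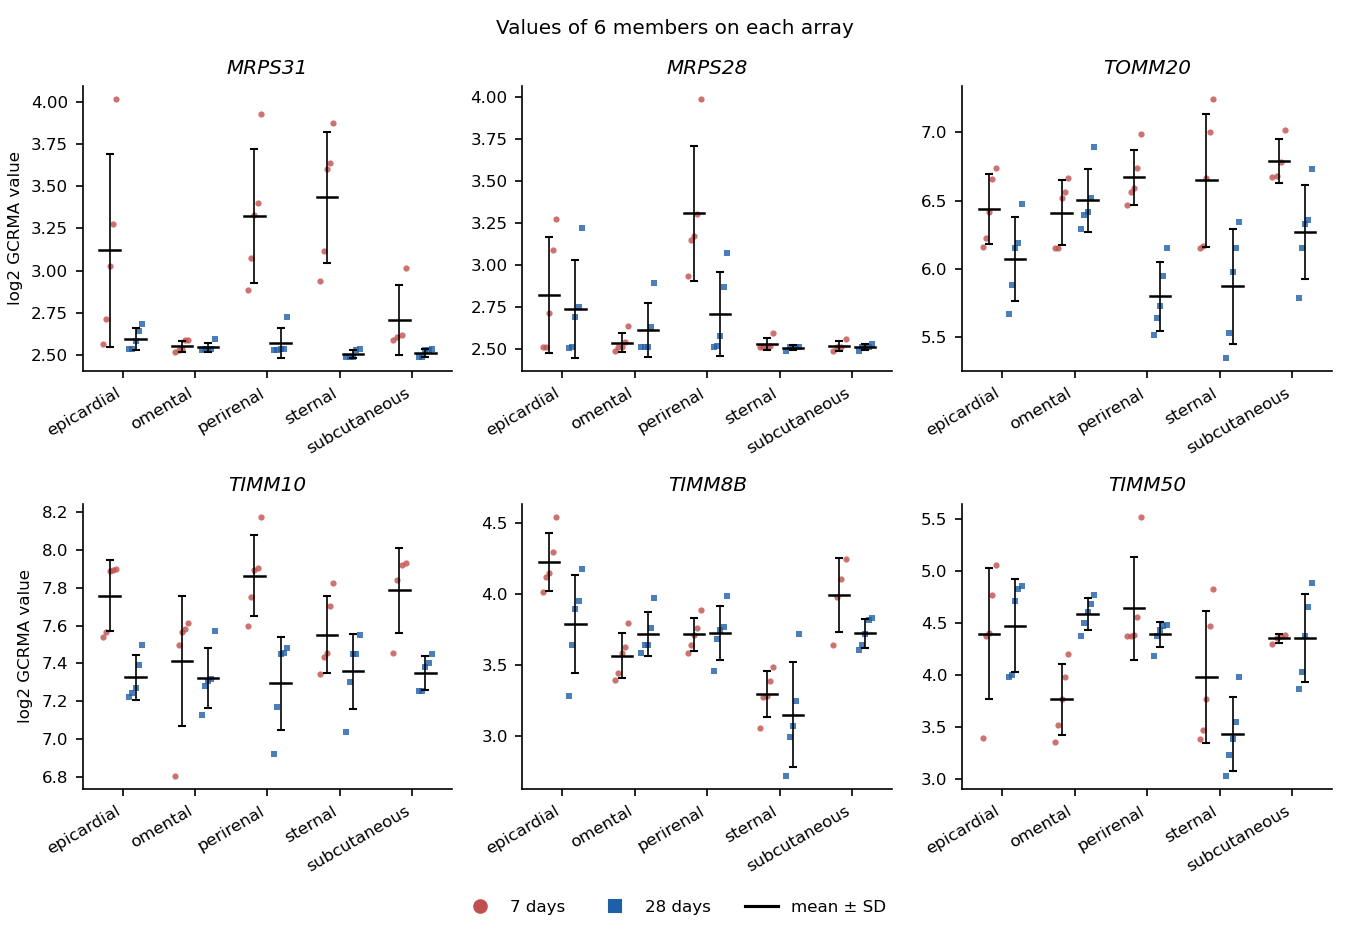
Log2 values of 6 genes on each array (points) with the group mean (bar) and SD (error bar), by depot at 7 and 28 days; each panel has its own y scale. MRPS31 is spread up to 4.02 in the depots with UCP1 at 7 days and lies between 2.49 and 2.72 on every array at 28 days.

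At 28 days 9 of the 63 genes differed between depots by the F test, against 20% of all probe sets. They were TIMM50 (adjusted p = 0.00109 from limma), MRPL54 (0.00239), MRPL2 (0.00832), MRPS15 (0.0106), TOMM22 (0.0109), MRPL14 (0.0136), MRPS10 (0.0145), TIMM8B (0.016) and TOMM20 (0.042). TIMM50 kept its call in every setting tried. Under quantile normalisation only TIMM50 and TOMM20 of these stayed, and MRPL42, MRPS18A and MRPS30 were called instead. TOMM20 lost its call when any 1 of 15 of the 25 arrays was left out. Without the arrays whose CKM value was above 4, which leaves only sternal arrays I and M, the calls of TOMM20, MRPL2, MRPS10 and MRPS15 were lost. TIMM8B lost it without sternal array I, M or N, with adjusted p up to 0.0766.

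Sternal fat at 28 days accounted for most of the calls. Against the mean of the other depots 16 of the 63 genes were called (25.4%, against 20.1% of all probe sets), 15 lower and 1 higher. Over all probe sets 1891 (18.4%) were lower and 170 higher. After quantile normalisation, which gives every array the same distribution of values, 9 of the 63 were called, 8 higher and 1 lower (9.30% of all probe sets, 601 higher and 354 lower). Of the 15 genes called lower, 4 turned to a positive difference after this step and 11 stayed below zero, of which only TIMM50 was still called. The median difference of the 63 genes was -0.08 with the deposited values, as was nearly that of all probe sets (-0.07), and 0.00 after quantile normalisation. On the sternal arrays a mean of 39.05% of the 63 genes lay below their shared value, against 28.6% of all probe sets there. Of 11 measured genes of skeletal muscle 5 were higher in sternal fat, and their summed level ran from 30.04 to 86.7 among its arrays. The part of either in the differences was not tested.

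TIMM50, the receptor that hands incoming proteins to the TIM23 channel of the inner membrane, was lower in sternal fat under both scalings. It read 3.03, 3.23, 3.55, 3.98 and 3.38 on sternal arrays I, J, M, N and O. Epicardial arrays lay between 3.98 and 4.86, omental between 4.38 and 4.77, perirenal between 4.18 and 4.49 and subcutaneous between 3.86 and 4.88. Sternal array N overlapped with the low end of epicardial and subcutaneous fat, and the other sternal arrays lay below all arrays of the other depots. The difference was -1.02 (standard error 0.16, adjusted p = 9.52e-05 from limma) with the deposited values and -0.70 (adjusted p = 0.00555) after quantile normalisation. It was called without any 1 array, with the highest adjusted p at 0.000832. The call also held without the arrays whose CKM value was above 4, which leaves only sternal arrays I and M.

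TOMM22, the central receptor of the outer membrane complex, read 3.20, 4.50, 4.37, 3.73 and 4.55 on sternal arrays I, J, M, N and O at 28 days. Omental arrays I, J, M, N and O read 5.27, 5.04, 4.92, 5.14 and 4.59, all above every sternal array. The epicardial (4.33 to 4.68), perirenal (4.50 to 4.67) and subcutaneous arrays (4.53 to 4.96) lay between or overlapped with both. The sternal difference was -0.64 (standard error 0.15, adjusted p = 0.00363 from limma) and was not called after quantile normalisation. TOMM22 was also higher in omental fat, with a difference of 0.51 ± 0.15 (adjusted p = 0.047), a call lost when any 1 of 18 of the 25 arrays was left out and under quantile normalisation.

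The other lower genes of sternal fat at 28 days were small, with several read near the lowest values. TIMM8B read 2.99, 3.72, 2.72, 3.07 and 3.25 on sternal arrays I, J, M, N and O, and 3.28 to 4.18 over all other arrays of that age. Its difference was -0.59 (standard error 0.12, adjusted p = 0.00149 from limma), in the direction it had at 7 days. MRPS15 of the small subunit read 2.50, 3.38, 3.70, 3.28 and 2.75 on sternal arrays, and 2.77, 3.08 and 3.24 on subcutaneous arrays I, J and N, so that these depots overlapped. MRPL52 of the large subunit read 3.64 on sternal array M and 4.89 to 5.37 on the other sternal arrays, against 5.32 to 6.01 in the other depots. MRPL27, also of the large subunit, read 4.66 on sternal array I and 5.37 to 5.70 on the others, within the range of epicardial fat (4.78 to 6.09). The differences were -0.52 for MRPS15, -0.67 for MRPL52 and -0.46 for MRPL27, with adjusted p of 0.017, 0.00918 and 0.0368. MRPS10 of the small subunit (-0.44, adjusted p = 0.0103) and MRPL54 of the large subunit (-0.45, adjusted p = 0.00107) completed the 8 genes with the largest differences. Of these 8 only TIMM50 was called after quantile normalisation. The other 7 lower genes differed by -0.37 to -0.19.

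Some of these calls rested on single sternal arrays. Without array I those of MRPL27, MRPS10 and MRPS15 were lost, with adjusted p up to 0.189, 0.0597 and 0.0958 from limma. The MRPL27 call was also lost without M or O, and the MRPS15 call without O. Of the 8 genes with smaller differences 5 lost their call without 1 or another of the sternal arrays. Among these 8, MRPL44 was the gene called higher (0.23, standard error 0.06) and stayed so after quantile normalisation, but not without sternal array J or N. It stood at 2.49, its shared value, on 32 of the 49 arrays and read 2.65, 2.92, 2.49, 3.10 and 2.49 on sternal arrays I, J, M, N and O. Leaving out the arrays whose CKM value was above 4 keeps only sternal arrays I and M. The calls of MRPL22, MRPL37, MRPL42, MRPL44, MRPL54, MRPS10 and MRPS15 in sternal fat were then lost. Under quantile normalisation, with all arrays kept, MRPS14, MRPL42, MRPS17 and MRPL14 turned to a positive difference. MRPS14 (0.24, adjusted p = 0.00874 from limma) and MRPL42 (0.24, adjusted p = 0.00146) were then called higher in sternal fat. For MRPS17 sternal arrays J, M and O were at 5.49, the shared value of this probe set, while I and N read 4.47 and 4.75.

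**Figure D3:**
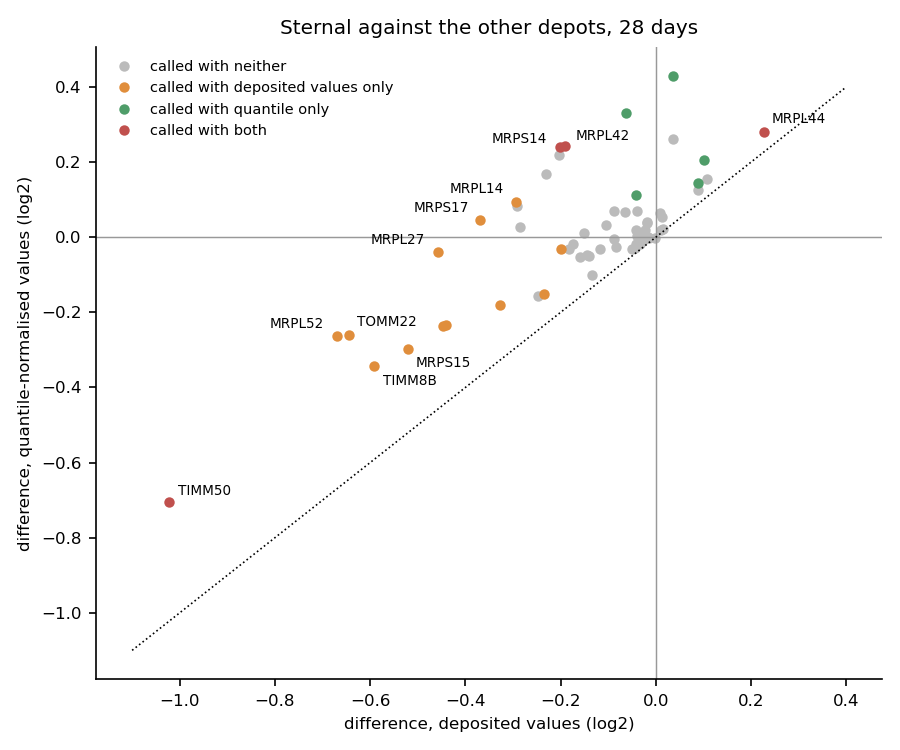
Difference of each of the 63 genes between sternal fat and the mean of the other depots at 28 days (log2), with the deposited values on the x axis and after quantile normalisation on the y axis; 1 point per gene, coloured by the calls, with a dotted line of equality. TIMM50 lies lowest under both, at -1.02 and -0.70, and the points lie above the line for most genes.

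Outside sternal fat few of the genes stood apart at 28 days. In omental fat MRPS10 was higher by 0.46 (standard error 0.12, adjusted p = 0.0215 from limma), besides TOMM22, against 5.12% of all probe sets called. It read 3.70, 3.76, 3.75, 4.16 and 3.52 on omental arrays I, J, M, N and O, against 2.62 to 3.80 over the other depots, and without omental array N it was not called (adjusted p = 0.109). In subcutaneous fat MRPL54 (0.33, standard error 0.09, adjusted p = 0.0423) and MRPL23 (0.30, standard error 0.08, adjusted p = 0.0279), both of the large subunit, were higher, against 3.04% of all probe sets. MRPL54 read 3.67, 3.88, 3.50, 3.39 and 3.77 on subcutaneous arrays H, I, J, M and N, overlapping with the epicardial (3.29 to 3.64) and omental arrays (3.31 to 3.63). Its call was lost when any 1 of 13 of the 25 arrays was left out, and that of MRPL23 without subcutaneous array J, M or N (adjusted p up to 0.155 and 0.146). No gene was called in epicardial or perirenal fat (3.24% and 3.36% of all probe sets), where 4 and 3 had an unadjusted p under 0.05. None of the omental and subcutaneous calls held after quantile normalisation.

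The set of depots that had held UCP1 at 7 days was lower at 28 days in 5 of the genes and higher in none, against 7.01% of all probe sets called and 6.52% called lower. TOMM20, the receptor for presequences on the outer membrane, differed by -0.47 (standard error 0.12, adjusted p = 0.0208 from limma) and kept its call in every setting tried. It read 5.52 to 6.16 in perirenal fat, 5.35 to 6.34 in sternal fat and 5.67 to 6.47 in epicardial fat, against 6.29 to 6.89 in omental and 5.78 to 6.73 in subcutaneous fat. Perirenal fat did not overlap with omental fat, and the other ranges did. TOMM22 (-0.47), MRPL27 (-0.41), MRPL54 (-0.31) and MRPL14 (-0.19) were the other lower genes, with adjusted p from 0.0106 to 0.0489. Each of these was also called lower in sternal fat alone, which is part of this set, and none in epicardial or perirenal fat. With the replicate number as a fixed block they lost their call (adjusted p from 0.0519 to 0.139 in limma). After quantile normalisation only TOMM20 stayed called, and the median of the 63 genes turned from -0.02 to 0.02 (-0.01 without omental array I). The calls of MRPL27 and MRPL14 were lost when any 1 of 17 and 21 of the 25 arrays was left out, and that of MRPL27 also without the arrays whose CKM value was above 4.

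**Figure D4:**
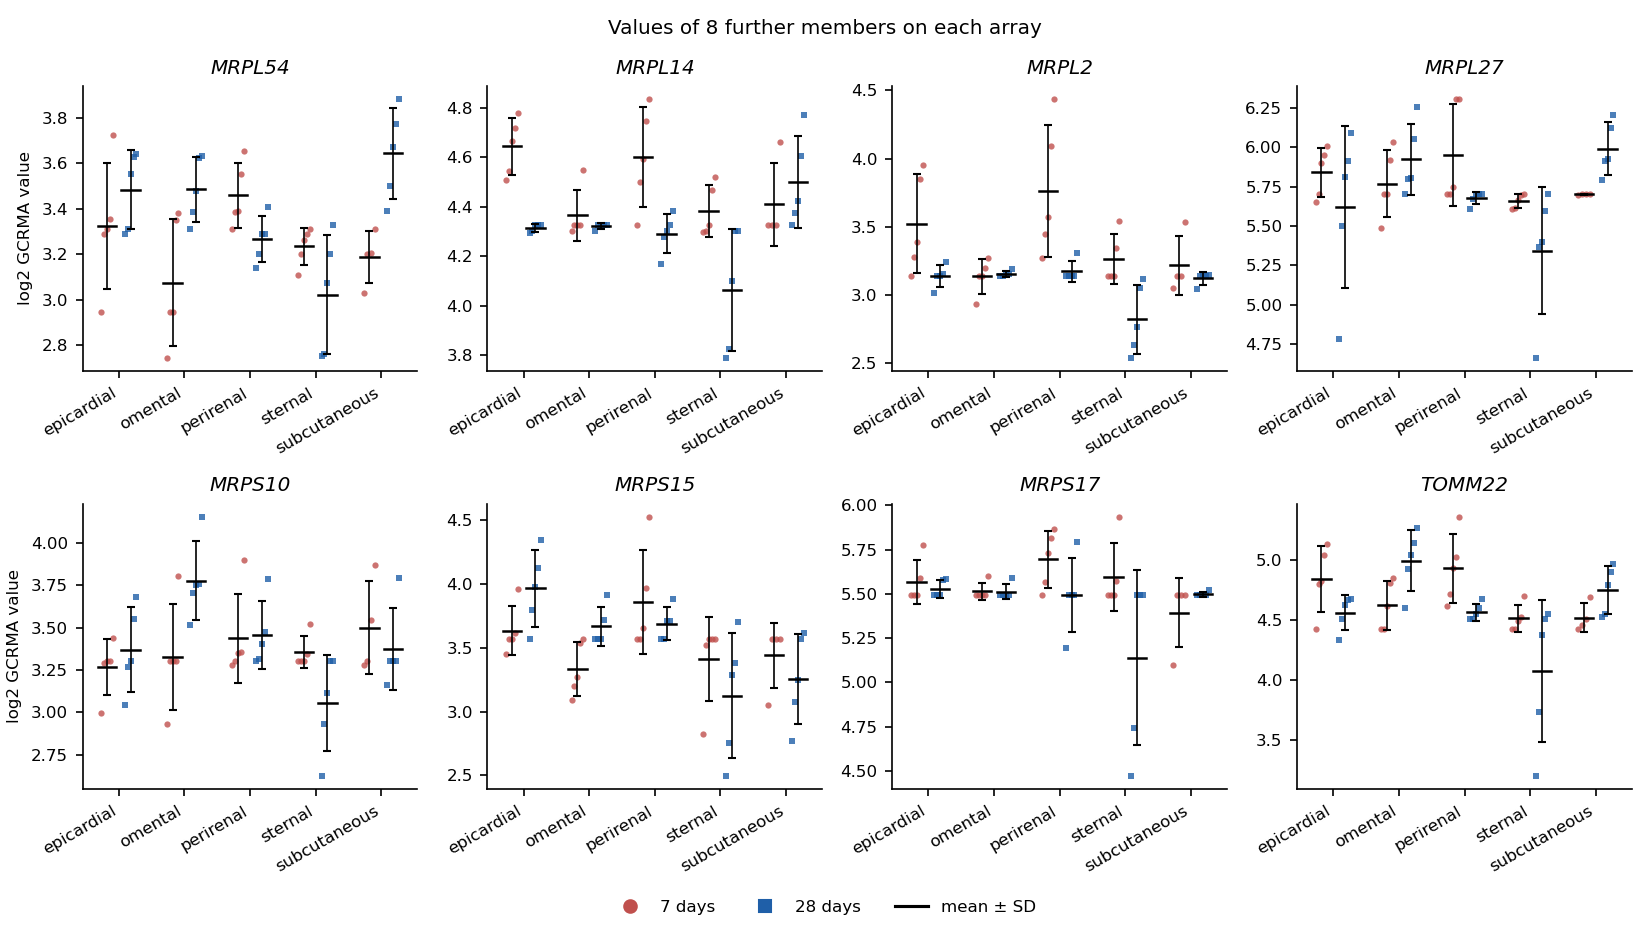
Log2 values of 8 further genes on each array (points) with the group mean (bar) and SD (error bar), by depot at 7 and 28 days; each panel has its own y scale. At 28 days the mean of TOMM22 is 4.07 in sternal fat and 4.99 in omental fat.

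From 7 to 28 days 7 of the 63 genes fell and none rose in perirenal fat (11.1%, against 9.32% of all probe sets called and 3.09% called lower). For 6 of the genes all values at 28 days were below all values at 7 days, against 2.54% of all probe sets. TOMM20 read 6.99, 6.59, 6.47, 6.56 and 6.74 on arrays A, B, C, D and G at 7 days and 5.94, 6.16, 5.52, 5.73 and 5.64 on arrays I, J, K, M and N at 28 days. It fell by 0.87 (standard error 0.19, adjusted p = 0.00133 from limma). TIMM10, a small TIM that with TIMM9 escorts hydrophobic carrier proteins between the membranes, read 8.17, 7.91, 7.60, 7.89 and 7.75 at 7 days and 7.48, 7.46, 7.45, 7.17 and 6.92 at 28 days. It fell by 0.57 (standard error 0.13, adjusted p = 0.00218). MRPS31 fell by 0.76 (standard error 0.16, adjusted p = 0.00125), from the values above to 2.72 on array I and 2.53 on J, K, M and N. The ages did not overlap for these 3 genes, and their calls held under every setting tried, within perirenal fat alone included.

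The other genes that fell in perirenal fat were MRPS28 (-0.60, adjusted p = 0.00186 from limma), MRPL2 (-0.59, adjusted p = 0.00433), MRPL37 (-0.40, adjusted p = 0.0257) and MRPL14 (-0.31, adjusted p = 0.0202). MRPL2, a large subunit protein near the site of peptide bond formation, read 3.57, 3.45, 3.27, 4.44 and 4.09 on perirenal arrays A, B, C, D and G at 7 days. At 28 days arrays I, J, K and M stood at 3.14, the shared value of this probe set, and N at 3.30. These 4 genes were not called when perirenal arrays were fitted alone. MRPL37 lost its call without array A, C or G of 7 days, and MRPL14 without A or C of 7 days or I of 28 days, with adjusted p up to 0.181 and 0.0921. Over the whole set 46 of the 63 genes were below zero, with a median of -0.11. Of all probe sets 55.1% were above zero, with a median of 0.01. An unadjusted p under 0.05 was reached by 20 of the 63 (31.7%, against 19.1% of all probe sets). Among the 14 genes with a mean of at least 4, 12 were below zero with a median of -0.23, against 0.11 over all probe sets with such a mean. Leaving out 1 array moved the median of the 63 between -0.14 and -0.07, the latter without perirenal array A of 7 days, and after quantile normalisation it was -0.12 with 9 genes called, all lower. The mean of UCP1 in perirenal fat was 6.29 at 7 days and 2.91 at 28 days.

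In sternal fat 4 genes fell with age and none rose (6.37% of all probe sets called, 3.89% lower). MRPS31 fell by 0.93 (standard error 0.16, adjusted p = 9.37e-05 from limma), from 2.94 to 3.88 at 7 days to 2.49 to 2.53 at 28 days, without overlap and in every setting tried. TOMM20 fell by 0.78 (standard error 0.19, adjusted p = 0.00629), from 6.67, 7.25, 6.16, 7.00 and 6.17 on arrays B, D, E, F and G to 5.53, 6.34, 5.97, 5.35 and 6.16 on I, J, M, N and O, and the ages overlapped. That call was lost without the arrays whose CKM value was above 4 and with sternal arrays fitted alone. MRPS17 (-0.46, adjusted p = 0.017) and MRPL14 (-0.32, adjusted p = 0.0207) also fell. MRPS17 lost its call without sternal array D of 7 days or I or N of 28 days, and MRPL14 without D or F of 7 days or I or O of 28 days, with adjusted p up to 0.126 and 0.105. Both calls were also lost with sternal arrays fitted alone (adjusted p = 0.57 and 0.344 from limma). That of MRPL14 was lost as well under quantile normalisation (0.0501) and with the trend and robust options of eBayes (0.0504). Over the set 53 of the 63 genes were below zero, with a median of -0.08. Of all probe sets 46.4% were above zero, with a median of 0.00.

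In epicardial fat the calls were TIMM10, MRPS31, TIMM8B and MRPL14, all lower at 28 days (5.84% of all probe sets called, 1.63% lower). MRPL14 read 4.72, 4.66, 4.51, 4.78 and 4.55 on arrays A, C, D, E and G at 7 days and 4.33, 4.33, 4.33, 4.30 and 4.29 on I, J, L, N and O at 28 days, without overlap. It fell by 0.33 (standard error 0.09, adjusted p = 0.0197 from limma), and lost its call only without epicardial array E of 7 days (0.0653) among the arrays left out. TIMM10 fell by 0.43 (standard error 0.13, adjusted p = 0.0351), from 7.54 to 7.90 down to 7.22 to 7.50, without overlap, and its call was lost without epicardial array A, E or G of 7 days or J, N or O of 28 days (adjusted p up to 0.0943). MRPS31 (-0.53, adjusted p = 0.0446) and TIMM8B (-0.43, adjusted p = 0.0497) lost theirs in 8 and 37 of the 49 fits that left out 1 array, with adjusted p up to 0.273 and 0.247. The calls of TIMM10 and MRPS31 were also lost without the arrays whose CKM value was above 4, which are of other depots. The median of the 63 genes was -0.04 (-0.03 without epicardial array A of 7 days), against 0.02 over all probe sets.

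Omental and subcutaneous fat had calls in the upward direction, which depended on the scaling. In omental fat 6 of the 63 genes rose with the deposited values, against 14.6% of all probe sets called and 13.5% called higher. TIMM50 read 3.52, 3.98, 3.36, 4.20 and 3.77 on omental arrays A, C, D, E and G at 7 days and 4.68, 4.60, 4.50, 4.77 and 4.38 on I, J, M, N and O at 28 days, without overlap. It was higher by 0.82 (standard error 0.26, adjusted p = 0.0237 from limma). MRPS34 of the small subunit (by 0.64, adjusted p = 0.00228), MRPS10 (by 0.45, adjusted p = 0.0316), TIMMDC1, an assembly factor of complex I (by 0.43, adjusted p = 0.00838), MRPL54 (by 0.41, adjusted p = 0.0139) and MRPS18A, a large subunit protein in spite of its symbol (by 0.25, adjusted p = 0.0244), were the others. After quantile normalisation none of the 6 was called, MRPS18A had a difference of -0.12, and 5 other genes (MRPL14, MRPL41, MRPL42, MRPS14 and MRPS30) were called, all lower. That step called 7.48% of all probe sets, 394 higher and 374 lower. The median of the 63 genes went from 0.04 to -0.04, and that of all probe sets from 0.06 to -0.01. Without omental array D of 7 days the calls of TIMM50, MRPL54, MRPS10 and MRPS18A were lost, and that of TIMMDC1 without array I of 28 days. Leaving out 1 array raised the adjusted p up to 0.0756 for TIMM50, 0.0686 for MRPL54, 0.13 for MRPS10, 0.127 for MRPS18A and 0.0604 for TIMMDC1.

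In subcutaneous fat MRPL54 (by 0.46, adjusted p = 0.0154 from limma) and MRPL23 (by 0.41, adjusted p = 0.0245) rose and TIMM10 fell (-0.44, adjusted p = 0.0344), each without overlap between the ages, against 9.25% of all probe sets called and 7.02% higher and 1.03% lower without overlap. MRPL54 read 3.03, 3.21, 3.20 and 3.31 on subcutaneous arrays A, E, F and G at 7 days and 3.39 to 3.88 at 28 days. TIMM10 read 7.45, 7.93, 7.84 and 7.92 at 7 days and 7.25 to 7.45 at 28 days, so that the nearest values of the ages differ only past the digits given. After quantile normalisation 4 genes were called, all lower: TIMM10, TIMM8B, TOMM20 and MRPS14. That step called 4.80% of all probe sets, 249 higher and 244 lower. Leaving out 1 subcutaneous array raised the adjusted p of TIMM10, MRPL23 and MRPL54 up to 0.108, 0.105 and 0.0645. All 3 calls were lost without the subcutaneous and sternal arrays whose CKM value was above 4, which leaves 1 subcutaneous array of 7 days. Of 11 skeletal muscle genes 7 were lower at 28 days in subcutaneous fat, and their part was not tested.

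**Figure D5:**
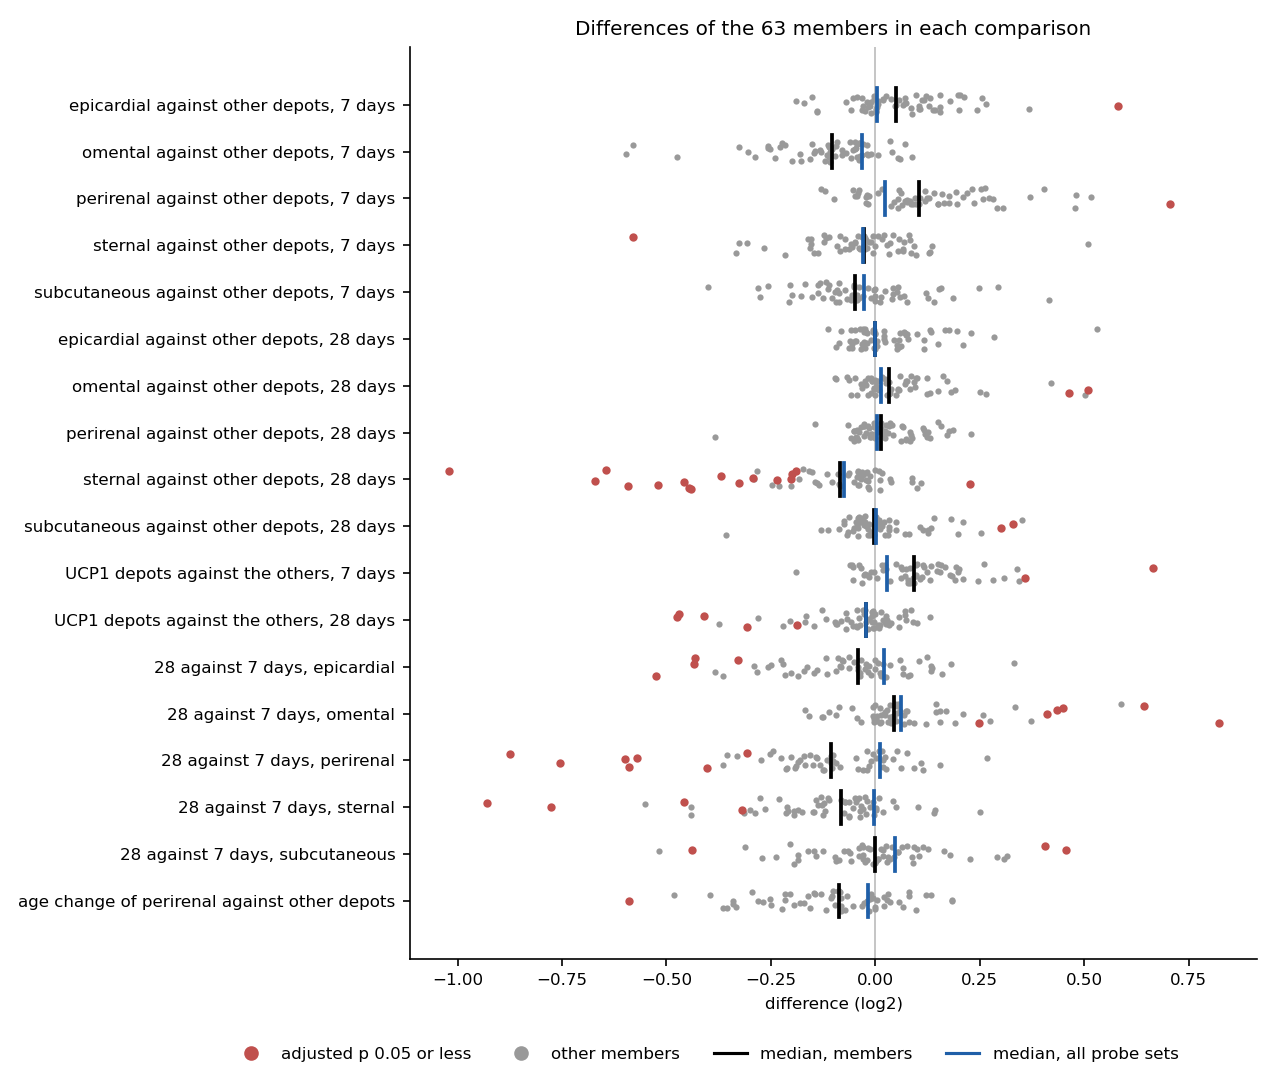
Differences of the 63 genes (log2, 1 point per gene, called genes in red, the others in grey) for each depot against the mean of the others and for the depots with UCP1 against the rest at 7 and 28 days, for 28 against 7 days in each depot, and for the perirenal change against that of the other depots. Black bars are medians of the 63 genes and blue bars those of all probe sets. In perirenal fat 50 genes lie above zero at 7 days and 46 lie below zero in the change with age. Of all probe sets 58.6% and 55.1% are above zero in these 2 comparisons.

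Whether the change with age differed between depots was tested itself. The F test called 3 of the 63 genes, against 9.17% of all probe sets: MRPL54 (adjusted p = 0.00633 from limma), MRPS31 (0.023) and TOMM22 (0.0331). MRPL54 changed by 0.41 in omental and 0.46 in subcutaneous fat, and had differences of 0.16, -0.19 and -0.21 in epicardial, perirenal and sternal fat that were not called. MRPS31 differed by -0.93 in sternal, -0.76 in perirenal and -0.53 in epicardial fat, and by -0.01 in omental and -0.20 in subcutaneous fat. TOMM22 was not called in any single depot, with differences of -0.44 in sternal, -0.37 in perirenal, -0.28 in epicardial, 0.23 in subcutaneous and 0.37 in omental fat. After quantile normalisation only MRPS31 kept the call, and without the arrays whose CKM value was above 4 it lost it. TOMM22 lost its call without omental array A or G of 7 days, I or N of 28 days, or sternal array N of 28 days, with adjusted p up to 0.0608. The perirenal change was also set against the mean change of the other depots. MRPS28 was then the only call, at -0.59 (standard error 0.15, adjusted p = 0.0339), against 1.27% of all probe sets, and it was not called without perirenal array A of 7 days or K, M or N of 28 days (adjusted p up to 0.136), nor without the arrays whose CKM value was above 4. For TOMM20 and TIMM10, which fell in perirenal fat, this difference was -0.48 and -0.28 (adjusted p = 0.334 and 0.453), so a change particular to perirenal fat was not shown for them. Of the 63 genes 48 had a difference below zero there, with a median of -0.09. Of all probe sets 44.2% were above zero, with a median of -0.02.

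Besides its own ribosomal proteins, mitochondrial translation needs elongation factors, assembly factors, rRNA enzymes and aminoacyl-tRNA synthetases, and import needs motor and processing subunits with other symbols. Of 9 listed ribosomal proteins under other symbols 2 were measured and neither was called in any comparison. Measured and listed were also 10 of 15 translation factors, 15 of 35 genes of ribosome assembly and rRNA processing, 13 of 25 synthetases, 16 of 27 other genes of import and processing, and 13 of 21 genes of mitochondrial transcription and biogenesis. In perirenal fat at 7 days 1, 2, 2, 2 and 3 of these were higher and none lower, in that order, against 5.11% of all probe sets called. With age in perirenal fat 1, 1, 1, 4 and 3 were lower, and 2 of the last list were higher, against 9.32% called and 3.09% called lower over all probe sets. In sternal fat at 28 days 4, 5, 4, 5 and 3 were lower and 1 translation factor was higher, against 20.1% called and 18.4% called lower over all probe sets.

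TUFM, the elongation factor that brings tRNAs to the mitochondrial ribosome, was higher in perirenal fat at 7 days by 1.06 (standard error 0.13, adjusted p = 4.48e-05 from limma). There it fell by 1.15 (standard error 0.13, adjusted p = 3.71e-08) with age, by more than in the mean of the other depots (-0.96, standard error 0.15, adjusted p = 0.000138). PAM16, a subunit of the import motor at the inner membrane, had the same pattern, with 0.78 (standard error 0.12) at 7 days, -1.34 (0.14) with age and -0.79 (0.16) in the test against the other depots. ESRRA, a nuclear receptor that drives genes of mitochondria, had 0.74 (0.14), -1.11 (0.14) and -0.76 (0.15). All these calls held in every setting tried and without any 1 array. Other depots had calls in the same direction. At 7 days TUFM (0.50) and PAM16 (0.45) were also higher in epicardial fat. With age PAM16 changed by -1.18 in sternal and -0.94 in epicardial fat. ESRRA changed by -0.65 in epicardial and -0.44 in sternal fat, and TUFM by -0.68 in epicardial fat. Among these further calls only the changes of PAM16 with age held in every setting tried. PPARGC1A, the coactivator of mitochondrial biogenesis, was higher in the depots with UCP1 at 7 days by 3.16 (0.20), and with age it fell by 2.44 (0.33) in perirenal fat and fell by 3.06 (0.33) in sternal fat. KARS1, the lysyl-tRNA synthetase, was higher in the depots with UCP1 at 7 days by 1.13 (standard error 0.16, adjusted p = 0.000128). HSD17B10, a subunit of mitochondrial ribonuclease P, fell by 1.22 (0.24) with age in perirenal fat and fell by 1.94 (0.24) in sternal fat. Its change with age was also called in omental fat, at -0.95 (0.24), and in epicardial fat, at -0.92 (0.24). ROMO1, an inner membrane protein listed with the import genes, was lower in sternal fat at 28 days, at -0.85 (standard error 0.09, adjusted p = 8.87e-07), and unlike most genes in that comparison it kept its call after quantile normalisation. It was also higher in the depots with UCP1 at 7 days, by 0.54 (0.07). With age ROMO1 changed by -0.82 (0.11) in sternal, -0.71 (0.11) in perirenal and -0.57 (0.11) in epicardial fat, each called. With the deposited values the largest difference of the 63 ribosomal and translocase genes was the -1.02 of TIMM50 in sternal fat at 28 days.

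The 14 genes with a mean of at least 4 varied together to a moderate degree. At 7 days the median Pearson correlation over their 91 pairs was 0.37 across 24 arrays, against 0.07 over pairs of all 1752 probe sets with such a mean. With each group's mean removed it was 0.25, against 0.06. At 28 days the median was 0.29 across 25 arrays, against 0.21, and 0.10 with group means removed, against 0.05. At 7 days TOMM22 (r = 0.79), MRPL43 (0.77), MRPL14 (0.76) and MRPS14 (0.73) followed the mean of the other 13 most closely, and TOMM40, MRPS30 and TOMM20 least (0.31 to 0.32). At 28 days MRPL27 (0.73) and TOMM22 (0.73) followed it most closely, while TIMM10, MRPS18A and TOMM40 did not follow it (-0.07 to -0.04). The arrays share depots, animals and the scaling of each array, so these values are a description.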

How the data were processed

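GCRMA of the affy package, in versions not given in the sources used here, gave the authors their background-corrected, normalized and deposited log2 values. Labelling used the 3' IVT Express kit, and array number limits the precision. The deposited log2 values were used without change for 10273 probe sets. Gene symbols came from the platform annotation: 9780 probe sets had 1 symbol, 6 had several and 487 had none. Of the 63 genes 58 have a sheep gene of the same symbol, 36 were read by probe sets of the _s_at type and 3 by the _x_at type, which can bind related transcripts. Within each age a model with 1 mean per depot was fitted over all probe sets with limma 3.58.1 in R 4.3.3 (lmFit, eBayes), as the study's methods use limma between the depots. Each depot was set against the mean of the other 4, and the depots with UCP1 against omental and subcutaneous fat. Changes with age, and their differences between depots, came from 1 fit of all 49 arrays, so litter was not modelled. Calls were made at 0.05 or less after Benjamini-Hochberg adjustment over all probe sets of a comparison. Differences are in log2 units, with moderated standard errors from a spread shared by all groups of a fit. Groups were said not to overlap when every value of one was above every value of the other, by any amount. Values within 1e-05 of the shared value of a probe set were counted as at it. The fits were tested on simulated data. The genes and gene lists were chosen with earlier results of these data known. Values on every array are given for the 14 genes called in the most comparisons, and at most 8 called genes are named per comparison by size of difference, with at most 4 per other gene list. Genes named for a change of call or sign under another setting were chosen after their values were seen. Alternatives were quantile normalization, a filter on a mean of at least 4, the replicate number as a block, eBayes with trend and robust, all arrays or 1 depot alone in the fit, leaving out sternal and subcutaneous arrays with a CKM value above 4, and leaving out each array. No sample column was left out. No sequence table was used here, so no sequences are printed.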

Additional observations from a re-analysis of the deposited data

Results flagged for a closer look

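Within groups of 4 or 5 arrays, the mean of the 63 genes and 14 genes were searched for 1 array far from the others, by the gap to its nearest neighbour relative to the range of the group. Of 150 groups 26 were marked, and chance alone would mark about 1 in 20; many groups are tied at a shared value, which makes a small deviation stand out. For the mean of the 63 genes the arrays were epicardial D (3.31) and omental D (3.23) at 7 days, both low, and perirenal A (3.64), high. In omental fat at 7 days they were MRPL14 in C (4.55), TIMM10 in D (6.81) and MRPS17 in D (5.60). Perirenal A at 7 days was high in MRPS10 (3.90) and TIMM50 (5.52). In sternal fat at 7 days they were MRPS28 (2.59), MRPS15 (2.83) and MRPS17 (5.94) in D and MRPS10 in B (3.52). In subcutaneous fat at 7 days they were MRPS31 in A (3.02), MRPL14 (4.66) and MRPS15 (3.05) in G, and MRPS17 (5.10) and MRPL27 (5.70) in F. At 28 days they were MRPS31 in omental J (2.59) and perirenal I (2.72), MRPL14 in omental O (4.30), MRPS17 in omental J (5.59) and subcutaneous H (5.52), MRPL2 in perirenal N (3.30) and subcutaneous H (3.04), MRPS28 in sternal J (2.49) and MRPS10 in subcutaneous I (3.80).

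The change with age differed between depots by the F test of limma for MRPL54 (adjusted p = 0.00633), MRPS31 (adjusted p = 0.0230) and TOMM22 (adjusted p = 0.0331). For MRPS28 the perirenal change differed from the mean change of the other depots by -0.59 (standard error 0.15, adjusted p = 0.0339), and MRPS28 fell by 0.60 from 7 to 28 days in perirenal fat (adjusted p = 0.00186).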

How the results depend on the processing

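Of 55 named differences, 23 kept direction and call under quantile normalisation, 27 lost the call and 5 turned sign. The signs that turned were in sternal fat at 28 days (MRPS14 0.24, MRPL42 0.24, MRPS17 0.045 and MRPL14 0.094) and in the omental change with age (MRPS18A -0.12). The calls kept numbered 46 of 55 with trend and robust, 36 of 55 without arrays high in CKM, 24 of 24 with the filter on the mean, 28 of 30 with all 49 arrays in 1 fit and 6 of 24 with 1 depot alone. Leaving out each array in turn gave 1970 recomputed values of these differences, of which 1767 kept their call and 203 lost it; no sign turned. Counts of called genes that moved follow. Quantile normalisation gave 5 for the F test at 28 days, 0 in omental, 9 in sternal and 0 in subcutaneous fat at 28 days, 1 and 1 for the depots with UCP1 at 7 and 28 days, and 1 for the F test of the change with age. In that order it called 12.8%, 2.86%, 9.30%, 2.27%, 3.77%, 3.67% and 5.25% of all probe sets. The filter on the mean tests 14 of the genes and gave 1 for the F test at 7 days, 0 in epicardial, perirenal and sternal fat and for the depots with UCP1 at 7 days, 8 in sternal and 1 in subcutaneous fat at 28 days, 3 for the omental and 3 for the perirenal change with age, and 0 for the perirenal change against the others. In that order it called 40.5%, 21.2%, 16.4%, 11.2%, 26.2%, 61.3%, 14.8%, 39.7%, 34.8% and 3.08% of the probe sets that passed the filter. With all 49 arrays in 1 fit the counts were 6 for the F test at 7 days, 2 in omental, 3 in perirenal, 2 in sternal and 1 in subcutaneous fat, 6 for the depots with UCP1 at 7 days, and 1 in epicardial fat at 28 days. In that order this fit called 13.6%, 2.78%, 7.14%, 2.29%, 2.77%, 7.19% and 3.95% of all probe sets. Trend and robust gave 1 in subcutaneous fat and 3 for the depots with UCP1 at 28 days, and 2 for the epicardial change with age (2.75%, 6.29% and 5.41% of all probe sets). Without arrays high in CKM the counts at 28 days were 5 for the F test, 10 in sternal and 1 in subcutaneous fat. These fits called 11.3%, 9.81% and 1.57% of all probe sets. Counts that involve 7 days are not given for this setting, as it leaves 1 subcutaneous array of that age. With 1 depot alone the changes with age gave 1, 1, 3, 1 and 0 in epicardial, omental, perirenal, sternal and subcutaneous fat. In that order 2.09%, 8.975%, 7.27%, 1.57% and 1.07% of all probe sets were called. The cause of these moves was not tested, except that the filter tests fewer genes.

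The replicate numbers were not shown to pair arrays: same-numbered arrays of different depots had deviations correlated above 0.1 in 6 of 33 pairs at 7 days and 12 of 39 at 28 days. Under a fixed replicate block, 21 of 30 calls held, and the counts that moved were 2 in epicardial fat at 7 days, 2 in epicardial, 1 in omental and 1 in subcutaneous fat at 28 days, and 1 for the depots with UCP1 at 28 days, where TOMM20 kept its call and TOMM22 (adjusted p = 0.0741), MRPL27 (0.139), MRPL54 (0.0519) and MRPL14 (0.0682) lost theirs in limma. For these counts, in order, the shares of all probe sets called were 3.60%, 2.13%, 5.00%, 1.48% and 4.68%. As a random replicate block all 55 calls held and 1 gene was called in epicardial fat at 28 days (3.33% of all probe sets). Leaving out 1 array gave 2 to 6 and 7 to 11 called genes for the F tests at 7 and 28 days. At 7 days it gave 1 to 2 in epicardial, 0 to 1 in omental, 1 to 2 in perirenal, 1 in sternal and 0 to 1 in subcutaneous fat, and 1 to 3 for the depots with UCP1. At 28 days it gave 0 to 2, 0 to 3, 0 to 1, 11 to 17 and 0 to 4 in the same order, and 3 to 6 for the depots with UCP1. For the changes with age it gave 1 to 4, 2 to 7, 6 to 9, 2 to 6 and 1 to 4, with 2 to 7 for their F test and 0 to 1 for the perirenal change against the others. Depth cannot be given for arrays; 49 of the 63 genes had a mean below 4.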
